A study of Mus musculus with 28 samples.

Results

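Between days 3.5 and 5 of differentiation, 2037 cells were annotated as primitive streak (PS), of 27135 annotated cells at those days and 31596 in the whole series. They were chosen by the cell type name in the deposited annotation together with the day of the library, and 1210 came from WT and 827 from Eomes-KD cultures. The cells are nuclei of mouse embryoid bodies (EBs), profiled for RNA and open chromatin together in 14 libraries. Every culture was grown from the E14 Runx1-Venus Eomes-mCherry-degron embryonic stem cell line, given as clone G9 in the titles of exp2, in medium with VEGF, BMP4 and Activin A. The degron lets the small molecule dTAG-13 remove EOMES protein, and WT cultures therefore carried the tagged Eomes and the reporter too. From day 3 to day 4, dTAG-13 at 100 nM was added to the Eomes-KD cultures and DMSO to the WT cultures, so that the cells of days 4.5 and 5 were collected after the treatment window. Days 3.5 and 4 had 1 library per condition in each of 2 experiments (exp1 and exp2), day 4.5 only in exp1 and day 5 only in exp2. A pair of WT libraries at day 3, both of exp2, served as the starting point and held 4399 PS cells.

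The primitive streak is the transient posterior structure of the gastrulating embryo through which epiblast cells pass as they become mesoderm and endoderm. Brachyury (T) and the homeobox factor Mixl1 mark its cells, and the pluripotency factor Pou5f1 (Oct4) is kept from the epiblast into the early streak. The T-box factor Eomes is known to act in the streak, where it is needed for definitive endoderm and for the earliest mesoderm. The files used here hold no value for single genes. T, Mixl1 and Pou5f1 levels, and the removal of EOMES itself, could therefore not be checked, and the cells were described through the labels, stages, clusters and read counts recorded for each cell.

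The only check of the name was the label transferred to each cell from an atlas of mouse gastrulation, which for each cell is the commonest label of its 25 nearest atlas cells. By the study's methods these labels also helped to name the clusters, so the check is not independent. Among the 2037 cells, 1246 (61.2%) bore the atlas label Primitive Streak. Nascent mesoderm, the mesoderm that has just left the streak, followed with 322 cells (15.8%), then surface ectoderm with 112 (5.50%), rostral neurectoderm with 105 (5.15%), epiblast with 103 (5.06%) and caudal epiblast with 47 (2.31%). The Primitive Streak label was held by 53.7% to 79.1% of the annotated PS cells in the 4 libraries of day 3.5, by 26.9% to 50.0% in the 4 of day 4, by 3 of 20 cells in the Eomes-KD library of day 4.5 and by 0 of 6 in that of day 5. From day 4 on the name thus rests on the clusters and not on the label of most single cells, and the cells are called PS cells here in that sense. Conversely, 1246 of the 1636 cells with the Primitive Streak label at days 3.5 to 5 (76.2%) were in the PS type, as were all 103 with the epiblast label and 105 of 108 with the rostral neurectoderm label, but only 112 of 316 with the surface ectoderm label.

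Nearly all cells of the day 3 libraries were PS, and the population was largely gone by day 5. At day 3 PS cells made up 98.6% of annotated cells in each library. At day 3.5 they made up 10.7% (261 of 2443 cells) in WT of exp1 and 11.3% (834 of 7391) in WT of exp2, against 15.2% (285 of 1875) and 14.3% (382 of 2663) in Eomes-KD. Both Eomes-KD libraries stood above both WT libraries at this day. By day 4 the shares were 2.43% (35 cells) and 2.77% (78 cells) in WT and 2.82% (41 cells) and 3.14% (93 cells) in Eomes-KD. The Eomes-KD library of exp1 and the WT library of exp2 were nearly level. At day 4.5 the counts were 1 of 445 cells in WT and 20 of 1722 in Eomes-KD (1.16%), and at day 5 they were 1 of 739 and 6 of 1177 (0.510%).

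The fall from day 3.5 to day 4 was far larger than the spread between libraries, with a log2 change of -2.18 (adjusted p = 0.000123, edgeR's quasi-likelihood test over 12 cell types). The comparison of the conditions depended on the denominator. As a share of all annotated cells, PS was higher in Eomes-KD in 6 of 6 pairs of libraries, by a log2 difference of 0.59 (SE 0.40, adjusted p = 0.207 in edgeR), and the call was not reached, whereas 8 of the 12 cell types (66.7%) passed this test. The exact permutation test of the shares within days gave a mean difference of 1.37 percentage points (two-sided p = 0.0139, the smallest these 144 arrangements can give). At day 3.5 the means were 14.8% ± 0.605 for Eomes-KD and 11% ± 0.425 for WT (SD, n = 2 libraries per condition), and the ratios of Eomes-KD to WT were 1.42 (95% interval of the counts 1.20 to 1.69) in exp1 and 1.27 (1.12 to 1.44) in exp2. At day 4 the ratios were 1.16 (0.723 to 1.88) and 1.13 (0.829 to 1.55), so that a change of the size seen at day 3.5 was not detectable at this depth. The ratios of 5.17 (0.827 to 214) at day 4.5 and 3.77 (0.457 to 173) at day 5 rest on a lone WT cell each, and the intervals cover counting error only.

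A share also moves when the other cells of the library change in number. When the 4 types of the yolk sac branch (the early mesoderm coded EOd in the table, the haematoendothelial type coded HE, its precursor and blood progenitors) were left out of the denominator, PS was lower in Eomes-KD at day 3.5. It was 39.4% and 35.7% of the remaining WT cells and 17.3% and 15.1% of the remaining Eomes-KD cells. The conditions did not overlap, and the log2 difference was -1.21 (adjusted p = 0.0136 in edgeR). All 4 types were themselves lower in Eomes-KD over the days (log2 differences from -8.28 to -2.20, edgeR). Leaving them out cut WT of exp1 from 2443 to 662 cells, but Eomes-KD of exp1 only from 1875 to 1644. The direction of the shift was thus set by the choice of types, and its p-value is no separate support. With the scaling of library sizes called TMM the day 3.5 difference was -0.07 (adjusted p = 0.978), and over all alternatives adjusted p ran from 0.0136 to 0.978. Whether more or fewer cells stayed in the streak per EB cannot be told from these shares.

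Within the annotation, PS consisted of clusters 2, 7, 11 and 16. After day 3 cluster 11 held 1401 of the 2037 cells (68.8%), cluster 2 held 387 (19%), cluster 7 held 180 (8.84%) and cluster 16 held 69 (3.39%). At day 3 the order had been different, with 47.5% and 42.5% of PS cells in cluster 2, 38.6% and 42.8% in cluster 7 and only 9.37% and 7.73% in cluster 11. The clusters carried different atlas labels. Primitive Streak was the label of 280 of the 387 cells in cluster 2 (72.4%), of 112 in cluster 7 (62.2%) and of 833 in cluster 11 (59.5%). Epiblast labels were on 40 cells of cluster 7 (22.2% of them), 55 of cluster 11 (3.93%) and 8 of cluster 2 (2.07%). Nascent mesoderm was the label of 46 of the 69 cells of cluster 16, but 40 of these were in the WT library of exp2 at day 3.5 (40 of its 46 cells, 87%). In WT of exp1 only 5 of the 20 cells of cluster 16 held it, while 13 (65%) were labelled Primitive Streak. The clusters were made by the authors from the RNA and chromatin of all cells, so a shift of cells between states and a change of expression that moves a cell across a cluster's border cannot be told apart.

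**Figure D1:**
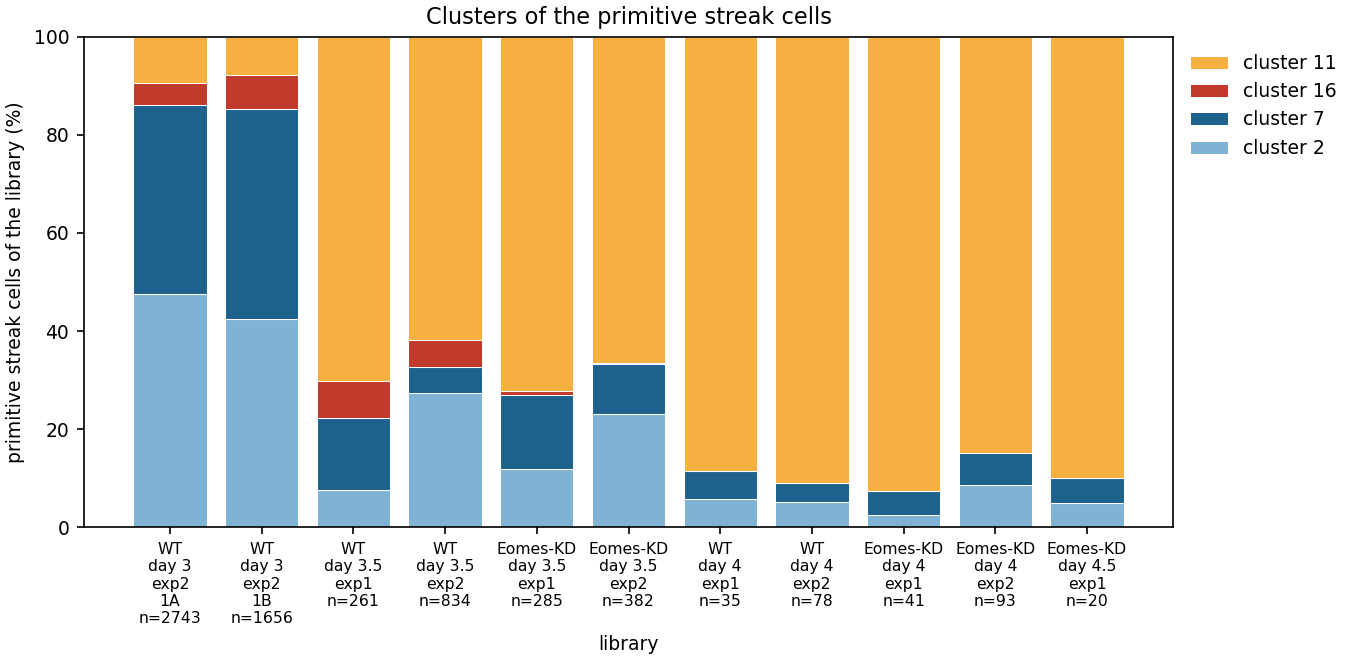
Percentage of PS cells in clusters 2, 7, 11 and 16, as stacked bars for the 11 libraries with at least 20 PS cells. Cluster 11 grows from 7.73% to 9.37% at day 3 to 84.9% to 92.7% at day 4, and cluster 16 is near 0 in both Eomes-KD libraries of day 3.5.

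Cluster 16 was nearly missing from Eomes-KD at day 3.5. In WT it held 20 of 261 PS cells in exp1 (7.66%) and 46 of 834 in exp2 (5.52%), close to its 4.52% and 7.00% at day 3. In Eomes-KD it held 2 of 285 (0.702%) and 1 of 382 (0.262%). All WT libraries of days 3 and 3.5 thus stood above both Eomes-KD libraries, in either experiment. The ratio of Eomes-KD to WT was 0.0916 (95% interval of the counts 0.0104 to 0.377) in exp1 and 0.0475 (0.00118 to 0.278) in exp2, and 0.0746 (0.0150 to 0.228) for the summed counts of 3 in 667 and 66 in 1095 cells. At day 4 the cluster had 0 cells in each of the 4 libraries, which allows shares of up to 3.23% to 8.57% of their PS cells.

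Over both days the log2 difference of cluster 16 was -3.65 (SE 0.486, adjusted p = 0.0111, edgeR), which was the single call among 4 clusters (25%). At day 3.5 alone it was -3.69 (SE 0.503, adjusted p = 0.0126), again the single call of 4 (25%). At day 4, where 3 clusters were tested, none passed (0%). The difference had the same sign under every alternative run, but the call was lost without the Eomes-KD library of day 3.5 in exp2 (-3.05, adjusted p = 0.0565) and in exp1 alone (-3.29, adjusted p = 0.0938), and adjusted p ran from 6.25e-06 to 0.889 over the alternatives, the last in an exact permutation test that cannot pass the threshold with these libraries.

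Cluster 7 did not pass between the conditions in the main fit, which has no block for the experiment. At day 3.5 it held 14.6% of WT and 15.1% of Eomes-KD cells in exp1, a ratio of 1.04, and 5.28% and 10.2% in exp2, a ratio of 1.94 (95% interval of the counts 1.22 to 3.05), with Eomes-KD the higher in both. The pooled log2 difference was 0.41 (adjusted p = 0.702, edgeR). With the experiment as a block it was 0.51 and passed (adjusted p = 0.0441), without the WT library of day 3.5 in exp1 it was 1.10 (adjusted p = 0.00736), and over all alternatives adjusted p ran from 0.00736 to 0.962. The test of the difference between the experiments gave adjusted p = 0.138 in edgeR. Cluster 11 was alike in the conditions at day 3.5, with 70.1% and 61.8% in WT and 72.3% and 66.5% in Eomes-KD, and its log2 difference over both days was 0.03. Cluster 2 took 7.66% and 27.5% of WT cells and 11.9% and 23.0% of Eomes-KD cells, so that it differed more between the experiments than between the conditions.

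From day 3.5 to day 4 the remaining cells drew together in cluster 11, in both conditions. It held 88.6% and 91.0% of WT and 92.7% and 84.9% of Eomes-KD cells at day 4, with every library of day 4 above every library of day 3.5 and a log2 change of 0.40 (adjusted p = 0.0151, edgeR). This was a change in the makeup of the PS cells. Counted against all annotated cells, cluster 11 fell by 1.79 on the log2 scale between the days. Cluster 2 fell by 1.59 (adjusted p = 0.0442), and cluster 16 had 69 cells at day 3.5 and 0 at day 4. These were 3 calls of 4 clusters (75%). They were 0 or 1 without either WT library of day 4, the Eomes-KD library of day 4 in exp1 or that of day 3.5 in exp2.

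The rise of cluster 11 among PS cells had begun by day 3.5. Against the day 3 libraries, the WT cells of day 3.5 were 7.28 times as often in cluster 11 (95% interval of the counts 6.42 to 8.27) and 0.186 times as often in cluster 7 (0.148 to 0.233), both past the test (adjusted p = 0.000310 and 0.0137, edgeR; 2 of 4 clusters, 50%). As a share of all annotated WT cells, cluster 11 did not rise, with means of 8.43% at day 3 and 7.23% at day 3.5. Among the PS cells, labels of cell types outside the streak appeared over the same interval. Rostral neurectoderm rose from 4 of 4399 cells to 65 of 1095, a ratio of 65.3 (24.3 to 247, adjusted p = 0.00784), surface ectoderm rose 30.5-fold (12.0 to 99.4, adjusted p = 0.00784), and mixed mesoderm, with 0 cells at day 3, was at least 26.8-fold higher when set against a floor of 3 cells over the day 3 libraries. These were the 3 calls of 7 atlas labels (42.9%). As mean shares of all annotated WT cells, rostral neurectoderm went from 0.0719% to 0.769% and surface ectoderm from 0.102% to 0.326%. Mixed mesoderm went from 0 to 0.149%. In all, 9 of the 24 labels, stages and clusters tested between these days passed, and 16 passed without the WT library of day 3.5 in exp1. The call of cluster 7 was lost without either day 3 library (adjusted p = 0.0680 and 0.0840, edgeR) and that of mixed mesoderm without library 1A (0.0563). The day 3 libraries both come from exp2, so that only part of this contrast is within an experiment.

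Among the atlas labels, none of the 8 tested differed between Eomes-KD and WT over both days (0%). The count was 0 also at unadjusted p under 0.05 in the main edgeR fit, and 0 with DESeq2. With the experiment as a block, caudal epiblast had unadjusted p = 0.0473 over both days and 0.0121 at day 4 (edgeR, adjusted p = 0.378 and 0.0965). Nascent mesoderm had unadjusted p = 0.0313 at day 3.5 in that fit (edgeR, adjusted p = 0.250). Shares are therefore given by library, for the labels that held at least 5% of the PS cells in 1 of the 8 libraries, first along the path to mesoderm and then for ectoderm and endoderm.

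**Figure D2:**
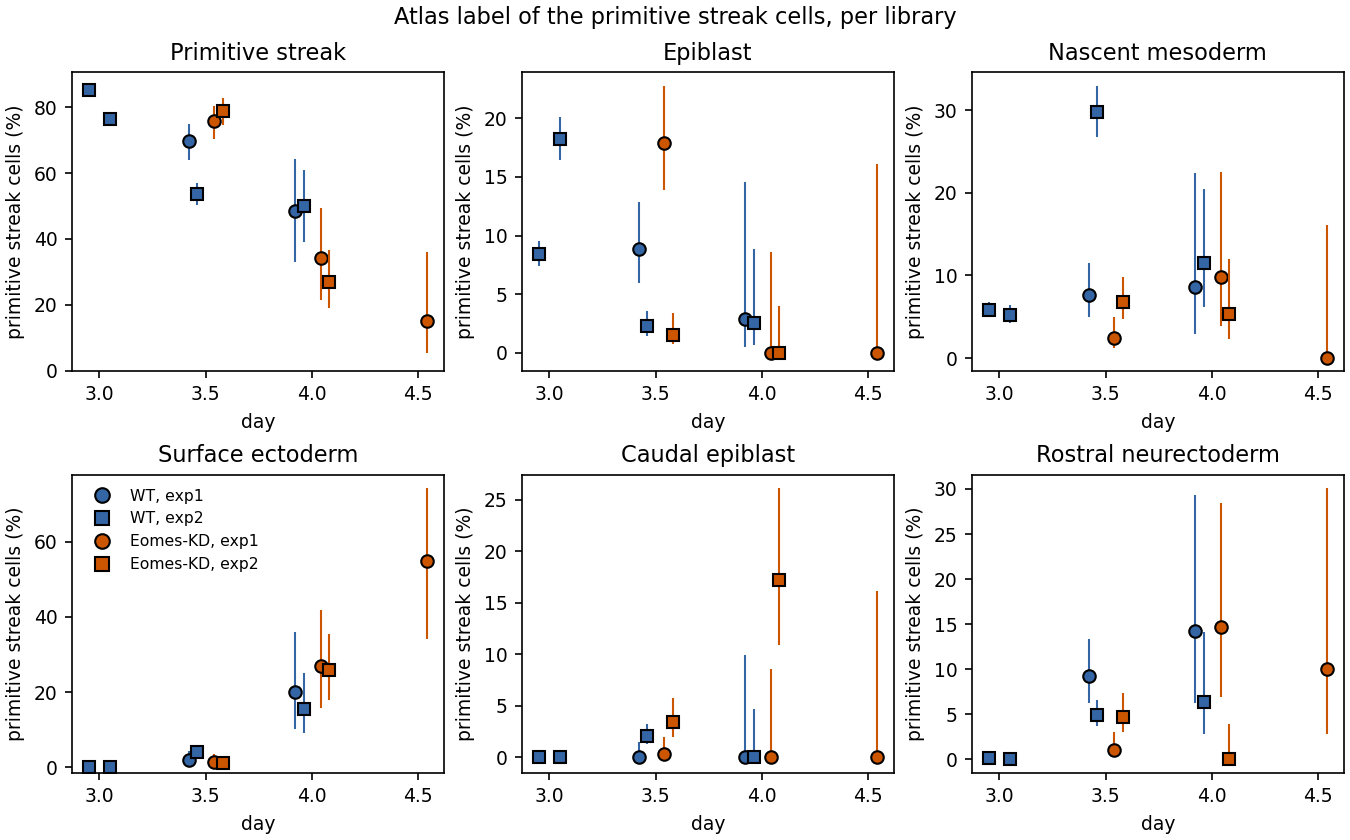
Percentage of PS cells with each of 6 atlas labels in every library with at least 20 PS cells, with 95% Wilson intervals that cover counting error only. Nascent mesoderm stands apart in the WT library of day 3.5 in exp2 (29.7%), caudal epiblast in the Eomes-KD library of day 4 in exp2 (17.2%), and surface ectoderm rises from at most 3.96% at day 3.5 to at least 15.4% at day 4 in both conditions.

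The nascent mesoderm label was held by 20 PS cells (7.66%) in WT of exp1 and 248 (29.7%) in WT of exp2 at day 3.5, and by 7 (2.46%) and 26 (6.81%) in Eomes-KD. Within each experiment the Eomes-KD library of that day was lower, with ratios of 0.321 (95% interval of the counts 0.115 to 0.789) and 0.229 (0.147 to 0.343). The WT libraries lay far apart, however. At day 4 the label was on 8.57% and 11.5% of WT and 9.76% and 5.38% of Eomes-KD cells. The order of the conditions thus differed between the experiments at day 4. The log2 difference at day 3.5 was -2.0 (SE 0.876, adjusted p = 0.278, edgeR) and over both days -1.33 (SE 0.746, adjusted p = 0.738), from -1.61 to -0.59 when any library was left out. The label was not confined to cluster 16. In the PS cells outside that cluster it was held by 6.22% and 26.4% in WT and by 2.47% and 6.56% in Eomes-KD. The WT library of exp2 with the high value also had the fewest RNA counts per PS cell (median 7817, against 12194 to 19726 in the others of day 3.5), and the part of depth in the label was not tested beyond cells of 8000 to 20000 counts, where the difference over both days was -1.08. In the early mesoderm type coded EOi of the same libraries, 41.5% and 69.4% of WT and 54.5% and 48.9% of Eomes-KD cells held the label.

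Cells labelled as Primitive Streak itself made up 69.7% and 53.7% of PS cells in WT and 75.8% and 79.1% in Eomes-KD at day 3.5, with both Eomes-KD libraries the higher. At day 4 both were the lower, with 48.6% and 50.0% in WT and 34.1% and 26.9% in Eomes-KD. Epiblast labels, which mark the state before the streak, depended on the experiment: 8.81% and 2.28% in WT and 17.9% and 1.57% in Eomes-KD at day 3.5. The ratio was 2.03 (95% interval of the counts 1.22 to 3.48) in exp1 and 0.689 (0.225 to 1.8) in exp2. At day 4 the epiblast label was left on 3 WT cells and 0 Eomes-KD cells. In the extended atlas the epiblast label was on 4.98% and 0.839% of WT and 14% and 1.31% of Eomes-KD cells at day 3.5, and the Primitive Streak label on 74.3% and 54.3% of WT and 80% and 76.2% of Eomes-KD cells. Among all atlas labels, the lowest adjusted p for a difference of the effect between the days was 0.409 and between the experiments 0.987 (edgeR).

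The caudal epiblast, the posterior epiblast beside the late streak that feeds the neuromesodermal axis, was labelled in 17 WT cells (2.04%) and 13 Eomes-KD cells (3.40%) of exp2 at day 3.5. At day 4 it was held by 16 Eomes-KD cells of exp2 (17.2%) and by 0 of the 113 WT cells of both experiments. Set against a floor of 3 cells over the WT libraries of day 4 (2.65%), the share over the Eomes-KD libraries was at least 4.5-fold higher. The extended atlas names the same nearest atlas cells a second time, so its labels are not independent of the first. By these names, 29 cells of the same Eomes-KD library (31.2%) held the label at day 4. In WT of exp2 1 cell (1.28%) held it at that day, a ratio of 24.3 (95% interval of the counts 4.03 to 993). At day 3.5 of exp2 the extended label was on 62 WT cells (7.43%) and 26 Eomes-KD cells (6.81%), a ratio of 0.916 (0.556 to 1.47). In exp1 it was found on 1 Eomes-KD cell at each of days 3.5 and 4 in the extended atlas and on 0 WT cells. The log2 differences of 1.99 in the atlas (adjusted p = 0.738, edgeR) and 1.53 in the extended atlas (adjusted p = 0.573) did not pass, and the former ran from 0.69 to 5.83 as single libraries were left out. The values of caudal epiblast thus rest on the Eomes-KD library of day 4 in exp2. Mixed mesoderm (8 cells, 8.60%) and intermediate mesoderm (6 cells, 6.45%) were also highest among the libraries of day 4 there, as was intermediate mesoderm in the extended atlas (10 cells, 10.8%, against 0 cells in each of the other 3). Extraembryonic mesoderm was on 5 cells of WT of exp2 at day 4 (6.41%) and on 1 cell (2.44% and 1.08%) of each Eomes-KD library.

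Surface ectoderm labels grew with time in both conditions. Surface ectoderm, the layer that gives rise to epidermis, was on 1.92% and 3.96% of WT and 1.40% and 1.05% of Eomes-KD cells at day 3.5. At day 4 it was on 20% and 15.4% of WT (7 and 12 cells) and 26.8% and 25.8% of Eomes-KD cells (11 and 24 cells), and at day 4.5 on 11 of 20 Eomes-KD cells (55%). The libraries of the days did not overlap. The log2 change from day 3.5 to day 4 was 3.42 (SE 0.670, adjusted p = 0.00638, edgeR), the single call of 8 labels (12.5%), and from 3.12 to 3.87 with any library left out. Within cluster 11 alone the label was on 0% to 3.69% of cells over the libraries of day 3.5 and on 14.1% to 26.3% over those of day 4. As a share of all annotated cells the change was 1.24 (adjusted p = 0.174). Over this result's alternatives adjusted p ran from 1.86e-05 to 0.683. For PS cells labelled surface ectoderm, the mean share of nearest atlas cells bearing that label was 0.501. It was 0.504 for rostral neurectoderm and 0.492 for caudal epiblast, against 0.713 for Primitive Streak and 0.737 for nascent mesoderm.

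The extended names of the same nearest atlas cells gave a like picture, under the name non-neural ectoderm. It was on 3.07% and 4.44% of WT and 1.40% and 1.83% of Eomes-KD cells at day 3.5, and on 34.3% and 20.5% of WT and 34.1% and 18.3% of Eomes-KD cells at day 4. The change between the days was 3.38 (adjusted p = 0.00514, edgeR). Lateral plate mesoderm passed as well (adjusted p = 0.00514; 2 of 9 labels, 22.2%), on the strength of 7 WT and 3 Eomes-KD cells at day 4. Between the conditions non-neural ectoderm was lower in Eomes-KD in 4 of 4 pairs, with a log2 difference of -0.62 (adjusted p = 0.573), and nascent mesoderm differed by -1.25 (adjusted p = 0.573). None of the 9 extended labels passed (0%), 0 had an unadjusted p under 0.05 in the main edgeR fit, and DESeq2 called 0. With the experiment as a block, unadjusted p at day 4 was 0.0065 for caudal epiblast and 0.0232 for intermediate mesoderm (edgeR, adjusted p = 0.0585 and 0.104). For nascent mesoderm at day 3.5 it was 0.0135 (edgeR, adjusted p = 0.121). Rostral neurectoderm, the anterior neural plate, was found at 9.20% and 4.92% in WT and 1.05% and 4.71% in Eomes-KD at day 3.5, and at day 4 at 14.3% and 6.41% in WT, 14.6% in Eomes-KD of exp1 and 0 of 93 cells in Eomes-KD of exp2. The last count allows a share of up to 3.23%. The extended label ectoderm was on 7.28% and 2.76% of WT and 1.40% and 3.93% of Eomes-KD cells at day 3.5, and at day 4 on 2 cells of each exp1 library (5.71% in WT and 4.88% in Eomes-KD) and on 0 cells of each exp2 library. Neither rostral neurectoderm nor ectoderm passed between the days.

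Endoderm labels stayed rare. Definitive endoderm, the other main product of the streak, was on 1 and 2 WT cells and 0 and 8 Eomes-KD cells (2.09%) at day 3.5, and on 1 and 3 WT cells and 3 (7.32%) and 2 (2.15%) Eomes-KD cells at day 4. The anterior primitive streak, from which endoderm arises in the embryo, was named in the extended atlas on 4 and 2 WT cells and 3 and 11 Eomes-KD cells (2.88%) at day 3.5, and on 0 and 3 WT cells and 2 and 2 Eomes-KD cells at day 4. In exp2 at day 3.5 both labels were thus on more Eomes-KD than WT cells, from a smaller library, while in exp1 they were not.

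The share of PS cells mapped to stage E7.5 of the embryo rose with the days, and the share mapped to E7.25 fell. At day 3, 77.1% and 92.1% of PS cells mapped to E7.25 and 0.510% and 0.0604% to E7.5. At day 3.5, E7.25 held 52.9% and 60.2% of WT and 55.8% and 59.9% of Eomes-KD cells, so that the conditions were nearly alike, and E7.5 held 10.3% and 15.1% of WT and 8.42% and 13.6% of Eomes-KD cells. Among WT PS cells, E7.5 was 41 times as frequent at day 3.5 as at day 3 (95% interval of the counts 24.1 to 75.0, adjusted p = 0.000275, edgeR). This was 1 of 3 calls among 6 stages (50%). As a mean share of all annotated WT cells, E7.5 went from 0.281% to 1.40%.

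**Figure D3:**
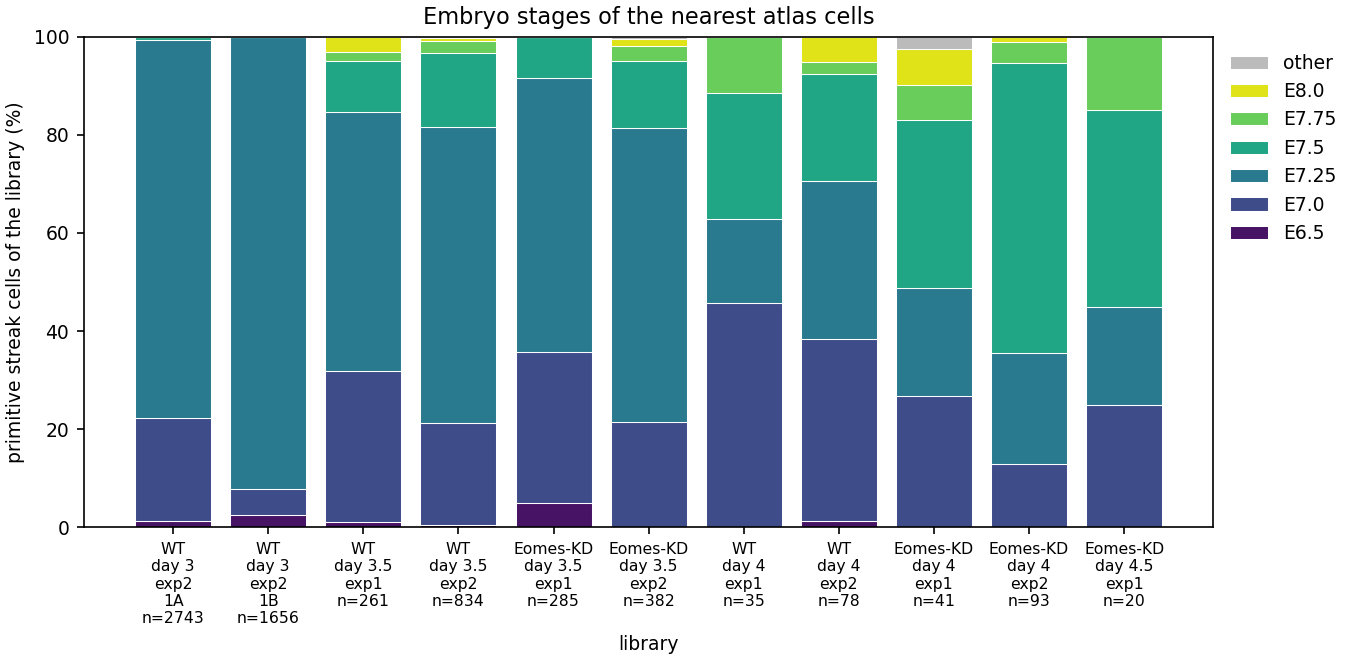
Percentage of PS cells mapped to each embryonic stage from E6.5 to E8.0, as stacked bars for the libraries with at least 20 PS cells. The Eomes-KD libraries of day 4 hold more E7.5 cells (34.1% and 59.1%) than the WT libraries (25.7% and 21.8%).

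At day 4 the stages E7.5 and E7.0 lay apart by condition without passing the test. E7.5 took 9 cells (25.7%) and 17 cells (21.8%) in WT and 14 cells (34.1%) and 55 cells (59.1%) in Eomes-KD. E7.0 took 45.7% and 37.2% in WT and 26.8% and 12.9% in Eomes-KD. Neither of these stages overlapped between the conditions, while E6.5, E7.25, E7.75 and E8.0 did. With 2 libraries per condition, such separation is common without any effect. The stages are also shares of a whole, so they do not move independently. The ratios for E7.5 were 1.33 (95% interval of the counts 0.535 to 3.48) in exp1 and 2.71 (1.55 to 4.99) in exp2, and for E7.0 0.587 and 0.347 (0.161 to 0.701). The log2 differences at day 4 were 1.00 (SE 0.537) for E7.5 and -1.10 for E7.0, both with adjusted p = 0.334 in edgeR. Over both days they were 0.36 (adjusted p = 0.843) and -0.48. The later stages were held by few cells of day 4, E7.75 by 4 and 2 in WT and 3 and 4 in Eomes-KD, and E8.0 by 0 and 4 in WT and 3 and 1 in Eomes-KD. None of the 6 stages passed (0%), 0 had an unadjusted p under 0.05 in the main edgeR fit, and DESeq2 called 0. With the experiment as a block, unadjusted p at day 4 was 0.0171 for E7.0 and 0.0161 for E7.5 (both adjusted p = 0.0514, edgeR). The mean stage at day 4 was E7.26 and E7.25 in WT and E7.38 and E7.40 in Eomes-KD, and over both days Eomes-KD was 0.0518 days later (p = 0.222 unadjusted and two-sided in the exact permutation test by day, where the smallest possible is 0.0556).

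Over both conditions, E7.5 rose from day 3.5 to day 4 by 1.51 on the log2 scale and E7.25 fell by 1.27 (both adjusted p = 0.0247, edgeR; 2 of 6 stages, 33.3%). Both calls were lost without the WT library of day 3.5 in exp1, the Eomes-KD library of day 3.5 in exp2 or either Eomes-KD library of day 4, with adjusted p of up to 0.0802. As a share of all annotated cells E7.5 did not rise but changed by -0.68, while the PS cells as a whole became fewer. In WT the earlier stage E7.0 also rose, from 30.7% and 21.0% at day 3.5 to 45.7% and 37.2% at day 4. In Eomes-KD it went from 30.9% and 21.5% to 26.8% and 12.9%. The mean stage went from E7.22 and E7.25 to E7.26 and E7.25 in WT, and from E7.16 and E7.26 to E7.38 and E7.40 in Eomes-KD.

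The nearest atlas cells agreed less on a label for the later cells. The mean label score, the share of the nearest atlas cells that bear the label given, was 0.788 and 0.760 at day 3. It was 0.726 and 0.674 in WT and 0.740 and 0.707 in Eomes-KD at day 3.5, and 0.542 and 0.582 in WT and 0.531 and 0.474 in Eomes-KD at day 4. The libraries of day 4 were all below those of day 3.5. A score of 0.8 or more was reached by 32.6% to 46.7% of cells in the libraries of day 3.5, by 17.1% and 15.4% in WT of day 4 and by 2.44% and 3.23% in Eomes-KD of day 4. The atlas and its extension gave a cell the same name in 79.6% to 92.6% of cells at day 3.5 and in 60.0%, 57.7%, 41.5% and 50.5% at day 4, the last pair being Eomes-KD. In cluster 16 the mean score was 0.886, the highest of the clusters. The score measures agreement among the nearest atlas cells, not how close a cell lies to them.

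**Figure D4:**
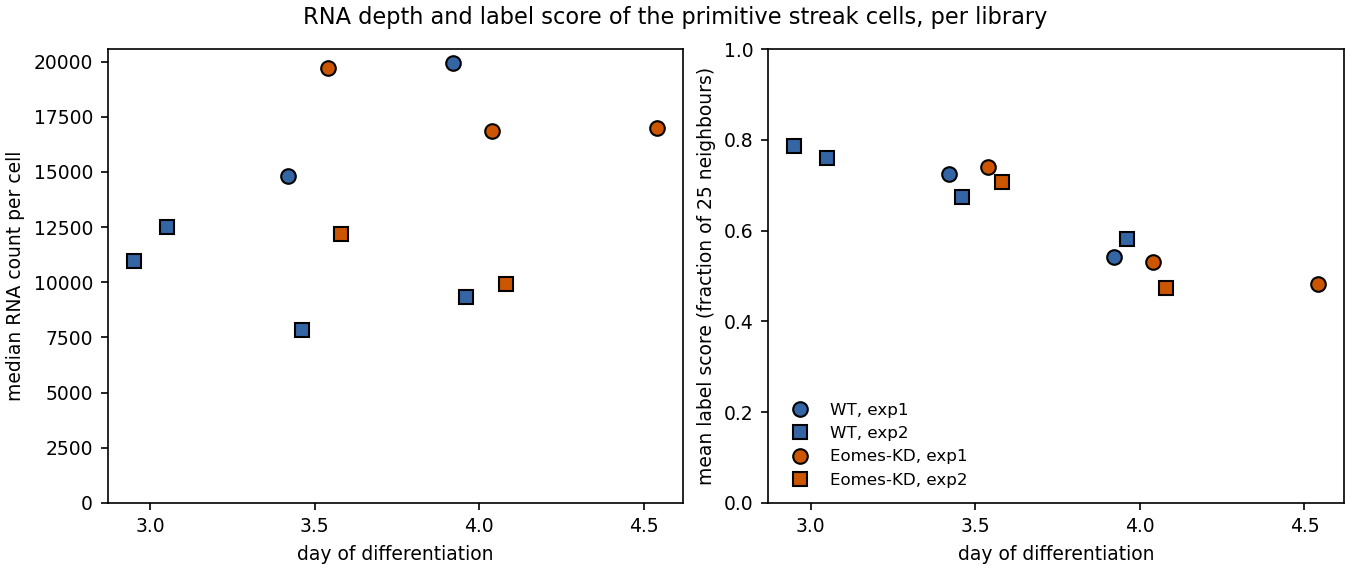
Median RNA count per PS cell (left) and mean label score (right) for each library with at least 20 PS cells, by day and condition. The score falls from day 3.5 (0.674 to 0.740) to day 4 (0.474 to 0.582) in both conditions, while the RNA count shows no such order.

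The RNA count per PS cell differed more between the experiments than between the conditions. Its median was 14808 and 7817 in WT and 19726 and 12194 in Eomes-KD at day 3.5, and 19954 and 9329 in WT and 16840 and 9905 in Eomes-KD at day 4, where the second of each pair is exp2. The exp2 libraries were lower at each day and in each condition. Since the table holds only totals per cell, they could not be thinned to a common depth. None of the 9 cell measures differed between the conditions in the exact permutation test within days, with adjusted p from 0.75 to 0.944 in a design of 36 arrangements that cannot pass after adjustment. The doublet score was higher in Eomes-KD in 4 of 4 pairs, by a mean of 0.035 (exact permutation p = 0.5), and the stage score differed by -0.0168 (exact permutation p = 0.167).

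The last PS cells were almost all from Eomes-KD cultures, which also had more annotated cells (1722 and 1177, against 445 and 739 in WT). With a lone pair of libraries at each of these days, the intervals of the ratios (0.827 to 214 and 0.457 to 173) did not exclude equal shares. Of the 20 Eomes-KD cells of day 4.5, 18 were in cluster 11, 11 were labelled surface ectoderm and 3 Primitive Streak, and their mean label score was 0.482. The lone WT cell of day 4.5 was labelled as a haematoendothelial progenitor, with a doublet score of 0.99 and 29785 RNA counts. Among the Eomes-KD cells of that day, doublet scores reached 0.91 and RNA counts 42435. The lone WT cell of day 5 was labelled as mixed mesoderm. In the authors' UMAP these WT cells lay 4.74 and 4.44 units from the median PS cell of day 3.5. The median cell of each tested library lay at 1.14 to 1.78. Single cells reached farther, with 95th percentiles of 2.27 to 5.69 over those libraries, and 1 Eomes-KD cell of day 5 lay at 8.02. The tests of labels, stages and clusters used only the 8 libraries of days 3.5 and 4.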

How the data were processed

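Nuclear RNA and chromatin accessibility were measured together (10x multiome) in 14 libraries of EBs. A single deposited table of 31596 cells was used, of whose 28 columns 19 were read; no gene values or sequences were analysed here. The authors aligned the reads with Cell Ranger ARC 2.0.1 to mm10 and filtered cells on genes, mitochondrial and ribosomal reads and doublets. They mapped each library onto the gastrulation atlas, whose cells also carry names from its extension. The cells were clustered on RNA and chromatin factors joined by MOFA+. The deposited RNA counts and numbers of detected genes per cell are whole-number counts of UMIs and genes, not normalized. The mitochondrial and ribosomal columns are percent of counts, computed by the authors. The deposited label and stage scores are fractions of the nearest atlas cells, and the doublet score is a score from the authors' doublet caller. UMAP coordinates and names were used as deposited. RNA counts per library summed to between 7262460 and 70753971 over annotated cells.

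Groups were taken from the labels of the series. Libraries were compared, not cells: counts of PS cells per label, stage or cluster were fitted with edgeR 4.0.16 (quasi-likelihood, no abundance trend, R 4.3.3) with day as a covariate and the number of PS cells as library size, for labels with at least 10 cells and for pairs of libraries with at least 20 PS cells each (8 libraries, 4 pairs, 2009 cells). For the share, 12 libraries (6 pairs) were fitted over 12 cell types. P-values were adjusted by Benjamini-Hochberg over all labels of a family and called at 0.05. The study tested abundance over neighbourhoods of single cells; libraries were tested here because cells are not replicates. Cell measures were compared by exact permutation within days, all tests two-sided. Ratios carry exact conditional 95% intervals of the counts, and shares Wilson intervals. The fits were tested on simulated data. All libraries come from 1 line, and nothing says that they are separate animals or clones, so p-values measure the spread between these cultures only. The alternatives were DESeq2 1.42.0, TMM factors, exact permutation, other minimums, cells with a label score of 0.6 or more or 8000 to 20000 RNA counts, each experiment alone, each library left out and, chosen after seeing the data, shares of annotated cells, no cluster 16, no days 4.5 and 5, and interactions. Labels are named where they held at least 5% of PS cells in a tested library or passed. The cells, labels and tests were chosen with earlier results of these data known.

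The main fits had no replicate block. The labels mark the experiment that libraries share, so the fit with the experiment as a block was run as an alternative. Deviations of the paired libraries from the group means correlated at 0.481 and 0.495 (days 3.5 and 4) for atlas labels, 0.675 and 0.223 for extended labels, 0.407 and 0.213 for stages, and 0.993 and -0.709 for clusters. They rest on 8 and 6 atlas labels, 7 and 6 extended labels, 6 and 4 stages, and 4 and 3 clusters. So few values say little about how strong the pairing is. By the study's methods, the differentiations were run weeks apart, and both conditions were collected on the same day. The libraries of an experiment were thus paired by design, which the main fits leave out. Their calls are to be read beside those of the block fit.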

Additional observations from a re-analysis of the deposited data

How the results depend on the processing

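Over 54 results and 896 alternative values, 782 kept their direction and their side of the threshold, 60 became weaker, 4 stronger, 40 moved and 10 reversed; the cause of these changes was not tested. The PS share of annotated cells (log2 0.59 over days, 0.43 at day 3.5, 0.20 at day 4) turned to -0.44, -1.21 and -0.37 outside the yolk sac branch, and to -0.0688 at day 3.5 with TMM factors, while the exact permutation test gave 1.37 points. With the experiment as a replicate block, clusters called between the conditions went from 1 to 2 (cluster 7, log2 0.51) and no other count of calls between the conditions changed. They were 2 in exp2 alone and 0 in exp1 alone and in the exact permutation test. From day 4 against day 3.5, atlas labels called went from 1 to 0 with a minimum of 50 PS cells, within 8000 to 20000 RNA counts and in either experiment alone, and to 3 as shares of annotated cells. Extended labels went from 2 to 1 with a label score of 0.6 or more, within 8000 to 20000 RNA counts, in exp1 alone and as shares of annotated cells, and to 0 in exp2 alone. Stages went from 2 to 1 with TMM factors and to 0 with 50 cells, with scores of 0.6 or more and in either experiment. Clusters went from 3 to 0 with 50 cells and in exp1 alone, and to 1 with scores of 0.6 or more. Between WT of days 3.5 and 3, calls went from 9 to 5 with no minimum per label. Cluster 11 between conditions reversed to -0.00607 at scores of 0.6 or more, and its change between days to -1.79 as a share of annotated cells, as E7.5 did to -0.68.

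With each library left out in turn, where the lone library of an arm is assumed to vary like the others, the calls between conditions ran from 0 to 2 among clusters (0 to 2 at day 3.5) and from 0 to 1 among stages of day 3.5. Between days 4 and 3.5 they ran from 1 to 2 among atlas labels, 1 to 2 among extended labels, 0 to 2 among stages and 0 to 4 among clusters, and between WT of days 3.5 and 3 from 7 to 16. Cluster 7 ran from -0.11 to 1.10 and cluster 11 from -0.0237 to 0.0719. Small cell numbers limit day 4, with 35 to 93 PS cells a library, and days 4.5 and 5, with 1 to 20.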

Other observations

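Cells with the atlas label Primitive Streak that the annotation placed outside the PS type were counted by type. Of the cells with this label at days 3.5 to 5, the PS type took 85.8% in WT and 67.0% in Eomes-KD, and the early mesoderm type coded EOi took 85 cells (10.6%) in WT and 273 (32.7%) in Eomes-KD. EOi itself held more cells in Eomes-KD. At day 3.5 the label was on 36 of 313 EOi cells (11.5%) in WT and 114 of 1253 (9.10%) in Eomes-KD of exp1, and on 45 of 1302 (3.46%) and 155 of 1982 (7.82%) in exp2, so that the order of the conditions differed between the experiments. These differences were not tested.

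Among 684 cells annotated as primordial germ cells at days 3.5 to 5, 28 were in the PS clusters. Across the libraries 607 cell barcodes were found in more than 1 library, and 74 PS cells of days 3.5 to 5 carried such a barcode, which the table cannot tell from chance reuse of barcodes.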
